A study of Rattus norvegicus with 6 samples.

Results

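Hox genes were followed in the renal cortex of rats dosed with tricresyl phosphate. Members were the genes whose probes map, through their RefSeq accession, to a symbol beginning with Hoxa, Hoxb, Hoxc or Hoxd and a number. There were 24 of them, with 42 probes, among 15645 genes with a symbol on the array. The RefSeq table holds 42 such symbols, antisense and related transcripts included, and the other 18 had no matched probe here. The renal cortex was taken from Sprague-Dawley (Crl:CD(SD)) males that had been bought at 5 weeks of age. In 1 group, 3 rats were dosed over 4 weeks with 200 mg/kg/day of tricresyl phosphate. This organophosphate ester is used as a plasticiser and flame retardant. In the other group, 3 rats were given corn oil for 4 weeks. Each animal had 1 Agilent array with a single dye, so replicates are separate animals.

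Hox genes encode homeodomain transcription factors that give cells their position along the head-to-tail axis of the embryo. In mammals they lie in 4 clusters, Hoxa to Hoxd, and copies at the same place in different clusters form paralog groups numbered from 1 to 13. Low-numbered genes act towards the hindbrain and neck, and high-numbered genes act towards the tail, the limb tips and the genital tract. In the mouse embryo the group 11 genes are needed for the metanephric kidney to form, and a Hoxb7 promoter is widely used to drive transgenes in the ureteric bud and the collecting duct.

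The Hoxd cluster is shown by its promoters because it holds, side by side, genes that were well above background in this tissue and genes that were not. The lines below give the 250 bases before the start of each Hoxd member, 5′ to 3′, from RefSeq assembly GRCr8. They run from Hoxd13 at the tail-end side of the cluster to Hoxd1 at the head-end side. Capitals mark each CG dinucleotide, called a CpG, the place where mammalian DNA is methylated.
Hoxd13 promoter, chr3:79977827-79978076, plus strand: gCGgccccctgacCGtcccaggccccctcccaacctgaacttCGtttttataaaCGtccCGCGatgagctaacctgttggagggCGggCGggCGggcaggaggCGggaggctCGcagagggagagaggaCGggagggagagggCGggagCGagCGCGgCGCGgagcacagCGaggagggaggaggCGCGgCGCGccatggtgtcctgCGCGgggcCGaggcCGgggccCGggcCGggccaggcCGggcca
Hoxd12 promoter, chr3:79984856-79985105, plus strand: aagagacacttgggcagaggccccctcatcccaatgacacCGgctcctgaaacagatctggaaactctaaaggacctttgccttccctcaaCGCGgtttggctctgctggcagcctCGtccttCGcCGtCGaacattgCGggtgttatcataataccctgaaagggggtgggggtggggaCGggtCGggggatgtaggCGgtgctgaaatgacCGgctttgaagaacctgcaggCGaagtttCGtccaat
Hoxd10 promoter, chr3:80001697-80001946, plus strand: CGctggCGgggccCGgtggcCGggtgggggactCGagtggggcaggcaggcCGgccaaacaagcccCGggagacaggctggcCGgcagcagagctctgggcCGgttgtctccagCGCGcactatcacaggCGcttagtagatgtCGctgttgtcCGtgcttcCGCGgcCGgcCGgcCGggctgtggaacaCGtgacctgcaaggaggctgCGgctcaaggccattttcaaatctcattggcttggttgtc
Hoxd9 promoter, chr3:80007756-80008005, plus strand: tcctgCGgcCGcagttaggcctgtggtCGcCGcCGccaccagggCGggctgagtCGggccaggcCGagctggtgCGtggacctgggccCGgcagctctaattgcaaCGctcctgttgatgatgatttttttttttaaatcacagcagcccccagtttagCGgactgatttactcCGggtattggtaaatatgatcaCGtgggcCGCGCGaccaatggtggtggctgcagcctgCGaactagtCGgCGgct
Hoxd4 promoter, chr3:80021636-80021885, plus strand: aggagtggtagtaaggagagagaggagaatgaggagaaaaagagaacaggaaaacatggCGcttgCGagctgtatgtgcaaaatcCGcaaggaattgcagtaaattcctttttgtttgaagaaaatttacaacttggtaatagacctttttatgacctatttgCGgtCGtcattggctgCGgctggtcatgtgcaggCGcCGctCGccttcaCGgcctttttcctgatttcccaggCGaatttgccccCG
Hoxd3 promoter, chr3:80045876-80046125, plus strand: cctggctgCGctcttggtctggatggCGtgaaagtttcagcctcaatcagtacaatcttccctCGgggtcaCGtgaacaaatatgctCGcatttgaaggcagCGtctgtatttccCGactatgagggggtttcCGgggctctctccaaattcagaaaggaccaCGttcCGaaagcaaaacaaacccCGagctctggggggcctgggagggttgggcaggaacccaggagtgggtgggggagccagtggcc
Hoxd1 promoter, chr3:80072791-80073040, plus strand: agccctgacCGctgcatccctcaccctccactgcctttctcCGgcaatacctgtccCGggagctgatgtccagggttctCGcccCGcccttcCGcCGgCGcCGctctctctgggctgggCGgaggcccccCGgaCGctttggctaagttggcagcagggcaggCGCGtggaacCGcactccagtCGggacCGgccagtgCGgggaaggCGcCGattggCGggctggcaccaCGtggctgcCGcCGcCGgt

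Hoxd10, Hoxd9, Hoxd4 and Hoxd3, in the middle of these lines, were well above background on all 6 arrays. Hoxd13, Hoxd12 and Hoxd1, at both ends, were well above background on 0, 2 and 1 arrays. The CpG count of the printed windows was 30 in Hoxd13, 14 in Hoxd12 and 25 in Hoxd1. It was 21 in Hoxd10, 20 in Hoxd9, 12 in Hoxd4 and 11 in Hoxd3.

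The table of promoters held 13 of the 24 members, 9 of them well above background and 4 not. CpG counts ranged from 3 to 28 with a median of 12 in the 9 promoters, and from 14 to 39 with a median of 27.5 in the 4 promoters. The median over all 33469 promoters was 5, and as many CpGs as in Hoxa13, the richest with 39, were held by 1.43% of them. The 2 sets of Hox promoters overlapped in CpG count, and methylation was not measured. As a description of the same windows on both strands, CCAAT, the letters of the CCAAT box, occurred in 9 of 13 Hox promoters and in 34.0% of all promoters. GGGCGG, the letters of a GC box, occurred in 6 of 13 and in 30.5% of all promoters. TATAAA, the letters of a TATA box, occurred only in Hoxd13 among the 13, and in 12.9% of all promoters. TGATNNAT, the letters that a Hox protein and its partner Pbx bind together, occurred only in Hoxa2 among the 13, and in 7.96% of all promoters. None of these 4 motifs contains another.

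**Figure D1:**
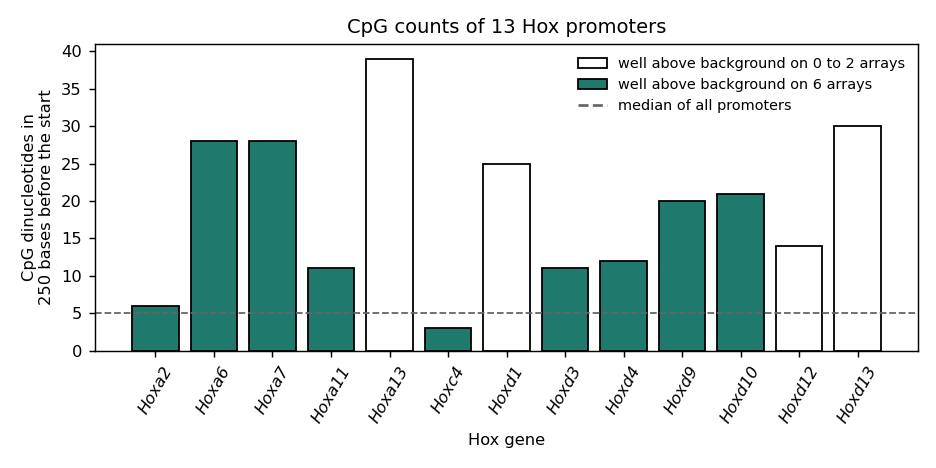
Number of CpG dinucleotides in the 250 bases before the start of 13 Hox genes, with filled bars for genes well above background on 6 arrays and open bars for genes with 0 to 2 such arrays. The dashed line marks the median of 5 over all promoters. Open bars reach from 14 to 39 and filled bars from 3 to 28.

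In adult renal cortex, measured Hox genes of paralog groups 2 to 11 were well above background, and those of groups 1, 12 and 13 were not. Under a looser flag, given below, Hoxa13, Hoxc12, Hoxd1 and Hoxd12 counted as well. A spot counts as well above background by the flag of the scanning software, and a gene counted when any 1 of its probes had the flag on at least 3 of the 6 arrays. By this rule 17 of the 24 Hox genes (70.8%) were above background, against 12432 of all 15645 genes with a symbol (79.5%). All 17 measured genes of paralog groups 2 to 11 were above background. None of the 7 measured genes of groups 1, 12 and 13 was. At the level of probes, 25 of the 27 probes for groups 2 to 11 had the flag on at least 3 arrays and 23 had it on all 6. Of the 15 probes for groups 1, 12 and 13, none had it on 3 arrays and 13 had it on 0. The split into these groups was read from the flags themselves, so it was given no test.

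The Hoxa cluster had 4 of 6 genes above background, the Hoxb cluster 5 of 6, the Hoxc cluster 4 of 5 and the Hoxd cluster 4 of 7. In the Hoxb and Hoxc clusters no group 1 gene was measured. The lowest-numbered genes measured there were Hoxb3, well above background on 3 arrays, and Hoxc4, on 6 arrays. Genes not above background by this rule included Hoxd1 at the head-end side, which acts in sensory neurons of the mouse. At the tail-end side they were Hoxc12 and Hoxd12, and with them Hoxa13 and Hoxd13, which shape the digits and the genital tract, and Hoxb13, a gene of the prostate. Both Hoxb13 probes lay at the lower end of what an array could give. One was at −7.66, −7.94 and −8.13 in tricresyl phosphate animals, against −7.87, −8.16 and −8.09 in corn oil animals. Levels here are log2 processed signals relative to the 75th percentile of the same array, and the lowest level of any probe was between −8.34 and −7.86 on the tricresyl phosphate arrays and between −8.36 and −8.09 on the corn oil arrays. Neither Hoxb13 probe was more than 0.22 above the lowest level of its array.

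In paralog groups 2 to 11, 16 of the 17 genes had 1 probe above background on all 6 arrays. The exception was Hoxb3, a gene of the hindbrain and the pharyngeal arches, on 3 arrays: tricresyl phosphate 3, corn oil 2 and corn oil 3. Hoxd1 had 1 array, tricresyl phosphate 1, and Hoxd12 had 2 arrays, corn oil 2 and corn oil 3. The number of Hox genes above background in an animal was 17, 16 and 17 with tricresyl phosphate, against 16, 18 and 18 with corn oil. These numbers overlapped between the groups. Under a looser flag for signal that is positive and significant over background, on at least 3 arrays, 21 genes counted. Hoxa13, Hoxc12, Hoxd1 and Hoxd12 joined, while Hoxb13 and Hoxd13 did not. A flag compares a spot with its own background, so it gives no order of abundance between genes.

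**Figure D2:**
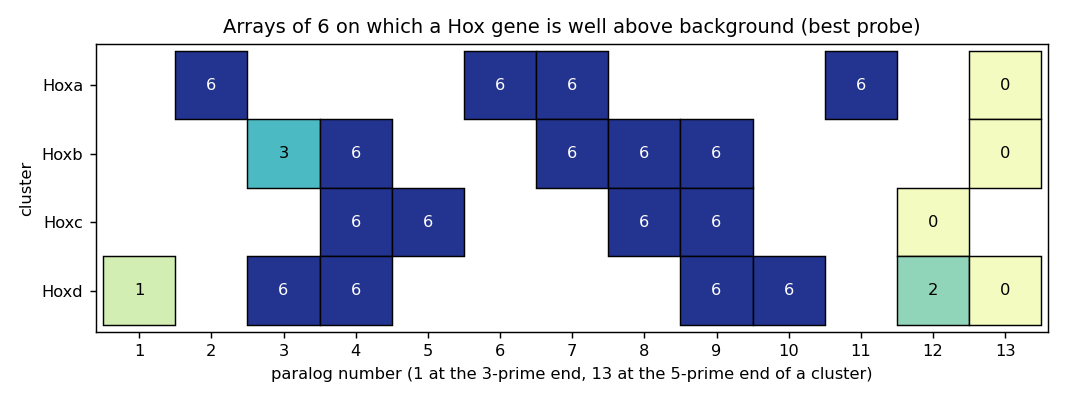
Number of arrays, of 6, on which the best probe of each Hox gene was well above background, by cluster (rows) and paralog number (columns). Empty places have no matched probe or are not reported here. The 17 genes in columns 2 to 11 stand at 6 arrays except Hoxb3 at 3, and the genes drawn in columns 1, 12 and 13 stand at 0 to 2.

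The comparison of tricresyl phosphate with corn oil asked whether any Hox gene of the cortex had a different level after 4 weeks of dosing. None of the 17 tested genes passed the threshold of an adjusted limma p under 0.05, and none reached an unadjusted p under 0.05. Of the 31637 genes tested over the array, 12432 had a symbol, and the rest were entries without one, each counted as a gene. Over all 31637, 0 passed the adjusted threshold (0.0%). An unadjusted limma p under 0.05 was found for 1737 of them, which is 5.49% (1.63% higher and 3.86% lower with tricresyl phosphate). The Hox differences, tricresyl phosphate minus corn oil on the log2 scale, lay between −0.19 and 0.28. They were above 0 for 12 genes and below 0 for 5, with a median of 0.056. Over all genes 40.8% of differences were above 0 and the median was −0.038. Adjusted p-values of the 17 genes lay between 0.811 and 0.993.

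The residual SD of the Hox genes had a median of 0.18 on the log2 scale, against 0.17 over all genes. The 95% confidence interval of the fold stayed inside a 1.5-fold difference either way for 13 of the 17 genes and inside a 2-fold difference for 15. The exceptions to the wider bound were Hoxb3, with 0.52 to 2.08, and Hoxd3, with 0.423 to 1.9. The tissue was taken whole, so fewer cells of a type and less RNA per cell cannot be told apart.

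**Figure D3:**
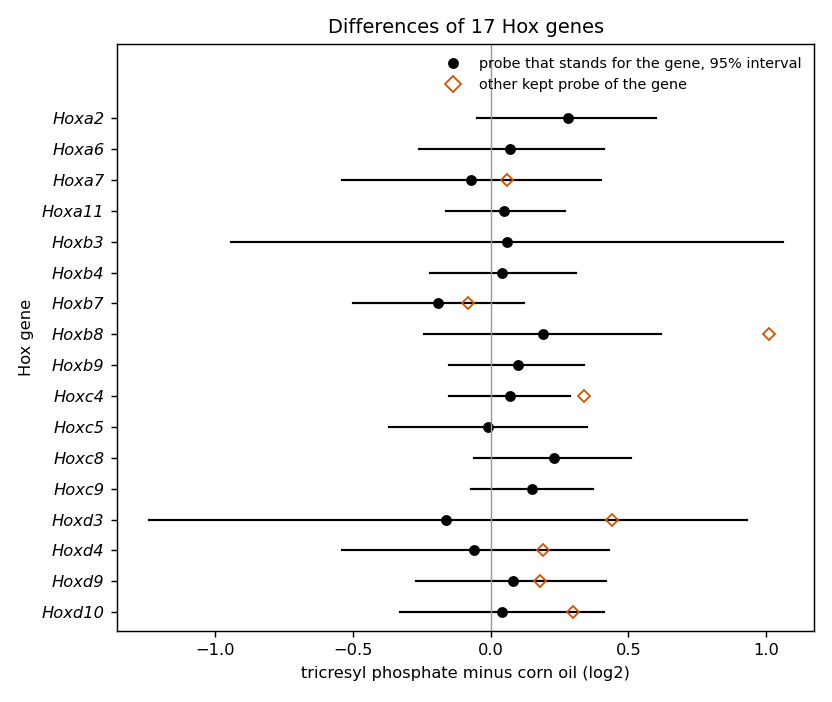
Difference between tricresyl phosphate and corn oil for 17 Hox genes on the log2 scale, with the 95% confidence interval of the limma fit (3 animals each), and the difference of a gene's other kept probe as a diamond. All 17 intervals include 0, and the diamond farthest from 0, at 1.01, is that of Hoxb8.

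Among the low-numbered genes, Hoxa2 had the smallest p of all 17. It patterns the hindbrain and the second pharyngeal arch. Its level was −4.08, −3.65 and −3.73 in tricresyl phosphate animals, against −4.15, −4.07 and −4.07 in corn oil animals. Tricresyl phosphate 2 and 3 stood above every corn oil animal, and tricresyl phosphate 1 lay among them. The difference was 0.28 ± 0.13 (SE, n = 3 each), 1.21-fold, with an unadjusted limma p of 0.0821 and an adjusted p of 0.811. Leaving out 1 animal gave 0.19 to 0.41. It was 0.19 without tricresyl phosphate 2 (unadjusted limma p of 0.235) and 0.41 without tricresyl phosphate 1 (unadjusted limma p of 0.00924, adjusted p of 0.715).

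Hoxd3 shapes the first neck vertebrae together with its paralog Hoxa3 in the mouse. It was the most variable tested member, with a residual SD of 0.67. Its level was −4.40, −5.12 and −3.98 in tricresyl phosphate animals, against −4.80, −3.48 and −4.74 in corn oil animals. The highest and the lowest animal belonged to different groups, corn oil 2 and tricresyl phosphate 2, and the groups overlapped. The difference was −0.16 ± 0.45 (SE). Its other probe, well above background on 4 arrays, gave the opposite sign, 0.44 ± 0.21 (SE), with an unadjusted limma p of 0.0754 at the level of probes.

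Group 4 was represented by Hoxb4, known for expanding blood stem cells, and by Hoxc4 and Hoxd4, genes of the neck region. Hoxb4 was at 0.47, 0.58 and 0.46 in tricresyl phosphate animals, against 0.61, 0.29 and 0.48 in corn oil animals. Corn oil animals were both the highest and the lowest, and the difference was 0.04 ± 0.11 (SE). Hoxd4 was at −1.92, −1.66 and −2.23 in tricresyl phosphate animals, against −1.97, −1.57 and −2.10 in corn oil animals, with overlapping groups. The difference of Hoxd4 was −0.06 ± 0.20 (SE), and its other probe gave 0.19. Hoxc4 had a difference of 0.07 by the probe that stood for it and 0.34 ± 0.16 (SE) by the other, whose unadjusted limma p of 0.0753 was the lowest of the 25 kept Hox probes. Hoxa6, Hoxb3, Hoxb9, Hoxc4, Hoxc5 and Hoxd9, the tested genes not followed animal by animal here, had differences between −0.01 and 0.10.

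Hoxa7 and Hoxb7 lie at the same place in their clusters. Hoxa7 was at 3.39, 3.33 and 2.83 in tricresyl phosphate animals, against 3.38, 3.40 and 2.99 in corn oil animals. The 2 low values belonged to 1 animal of each group, and the groups overlapped. The other Hoxa7 probe was at 0.54, 0.52 and 0.34 with tricresyl phosphate, against 0.41, 0.50 and 0.30 with corn oil. Both probes were lowest in the same animals, tricresyl phosphate 3 and corn oil 3. Differences were −0.07 ± 0.19 (SE) and 0.06 ± 0.10 (SE), of opposite sign and within their errors.

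Hoxb7, the ureteric bud and collecting duct gene, had the lowest difference of the 17. It was at 3.80, 3.61 and 3.41 in tricresyl phosphate animals, against 3.85, 3.87 and 3.67 in corn oil animals. Tricresyl phosphate 2 and 3 lay below every corn oil animal, while tricresyl phosphate 1 lay above corn oil 3. The difference was −0.19 ± 0.13 (SE), 0.877-fold, with an unadjusted limma p of 0.191, and the other probe gave −0.08 ± 0.11 (SE). Leaving out tricresyl phosphate 3 gave −0.09 and leaving out tricresyl phosphate 1 gave −0.29. Markers of collecting duct principal cells, 4 with a probe and all above background, had mean levels of 3.79 to 3.85 with tricresyl phosphate, against 3.58 to 3.83 with corn oil.

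Hoxb8, a gene of the spinal cord and of blood progenitors, was measured by 2 kept probes that differed in 1 animal. The probe that stood for the gene was at −1.58, −1.63 and −2.15 in tricresyl phosphate animals, against −2.10, −1.84 and −1.99 in corn oil animals. Tricresyl phosphate 1 and 2 lay above the corn oil animals and tricresyl phosphate 3 below them. The difference was 0.19 ± 0.18 (SE). It was 0.09 without tricresyl phosphate 1 and 0.11 without tricresyl phosphate 2, and 0.37 without tricresyl phosphate 3, with an unadjusted limma p of 0.0232 and an adjusted p of 0.931. The second probe was at 0.22, −3.31 and −3.63 with tricresyl phosphate, against −3.56, −3.08 and −3.12 with corn oil. Tricresyl phosphate 1 alone stood 3.30 above the next animal, a gap of 9.86-fold, and the first probe did not show it. The fit of the second probe gave 1.01 ± 1.00 (SE), and the mean of both probes gave 0.60.

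The spots around that second Hoxb8 probe were also bright on the same array. Of its 8 neighbours, 1 was set missing there as an outlier spot. The other 7 were all above their median in the other 5 animals, by 0.14 to 6.06 on the log2 scale with a median of 1.36. A neighbourhood median this high was found at 167 of the 61537 spots of that array (0.271%). Within 10 rows and columns of the spot, 35 of 425 non-control spots with a value (8.24%) were at least 1 log2 unit above the median of the other animals, against 3.08% over the whole array. The same area held 1 other Hox spot, the second Hoxb7 probe, whose neighbours had a median of 1.03 while the probe itself was at 0.79, within the range of the corn oil animals. At the other Hox spots, over 6 animals, the neighbourhood medians lay between −0.46 and 1.03, this Hoxb7 spot included. Across the array, 57 of 43061 kept probes had 1 animal at least 3 log2 units above the rest, and in 30 of them that animal was tricresyl phosphate 1. The spot had no outlier flag. Its part in the Hoxb8 value was not tested.

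**Figure D4:**
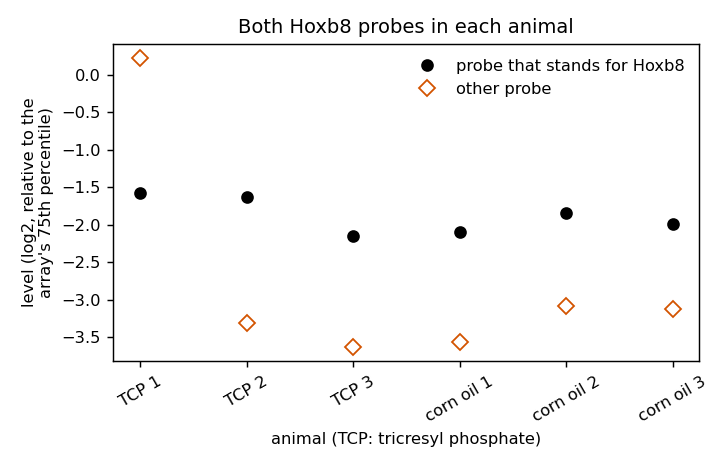
Level of both Hoxb8 probes in each of the 6 animals, log2 relative to the 75th percentile of the array. The second probe (diamonds) is at 0.22 in tricresyl phosphate 1 and between −3.63 and −3.08 in the other 5 animals, while the first probe (circles) lies between −2.15 and −1.58 in all 6.

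Hoxc8 and Hoxc9, neighbours in their cluster that set the identity of motor neurons at forelimb and chest level in the mouse, were the only tested Hox genes whose groups did not overlap. Over all genes tested, 11.8% had groups without overlap, 3.85% with tricresyl phosphate higher and 7.95% with it lower. Hoxc8 was at −3.01, −2.95 and −2.65 in tricresyl phosphate animals, against −3.13, −3.10 and −3.08 in corn oil animals. All tricresyl phosphate animals stood above all corn oil animals, with a gap of 0.062 between the nearest. The difference was 0.23 ± 0.12 (SE), with an unadjusted limma p of 0.0999, and without tricresyl phosphate 3 it was 0.12. Hoxc9 was at 0.02, −0.06 and 0.14 in tricresyl phosphate animals, against −0.12, −0.06 and −0.15 in corn oil animals. The groups touched, with 0.003 between tricresyl phosphate 2 and corn oil 2. The difference was 0.15 ± 0.09 (SE), with an unadjusted limma p of 0.158, and without tricresyl phosphate 3 it was 0.09.

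Hoxd10 and Hoxa11 were the highest-numbered genes that were well above background. Hoxd10, a gene of the hindlimb motor neurons in the mouse, was at 1.45, 1.05 and 1.42 in tricresyl phosphate animals, against 1.46, 1.21 and 1.13 in corn oil animals. The ranges overlapped almost fully, and the difference was 0.04 ± 0.15 (SE). Hoxa11, of the paralog group needed for the kidney rudiment in the mouse, was at −0.16, −0.12 and −0.04 in tricresyl phosphate animals, against −0.08, −0.24 and −0.15 in corn oil animals. The highest animal had tricresyl phosphate and the lowest corn oil, with overlap between them. Hoxa11 had a difference of 0.05 ± 0.09 (SE) and the smallest residual SD of the 17 genes, 0.07.

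**Figure D5:**
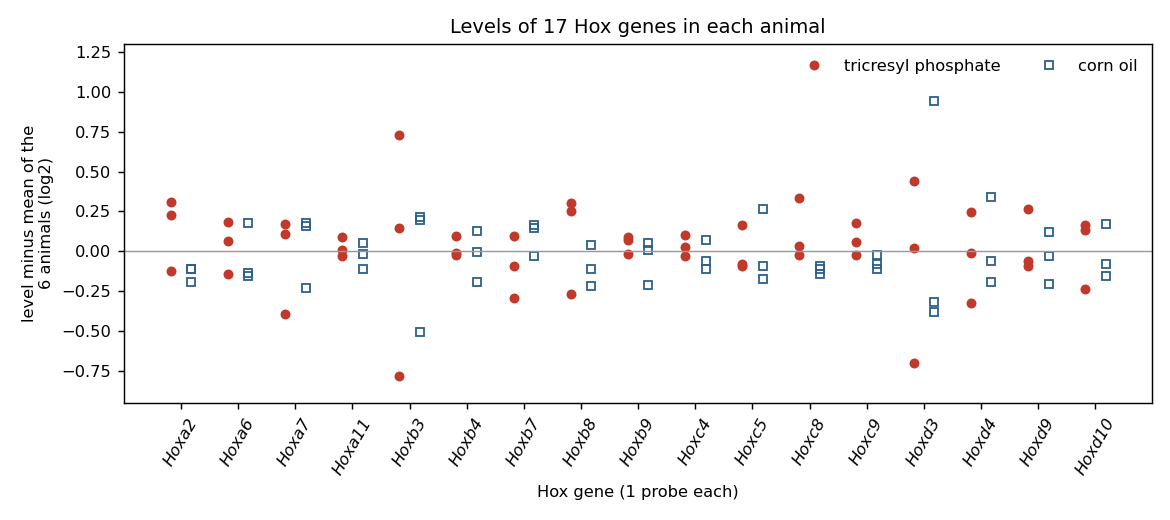
Level of 17 Hox genes in each animal minus the gene's mean over the 6 animals (log2), with tricresyl phosphate as filled circles on the left and corn oil as open squares on the right of each gene. Hoxb3 and Hoxd3 scatter most, and the groups are apart in Hoxc8 and, by 0.003, in Hoxc9.

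Over the 25 kept Hox probes, 19 differences were above 0 and 6 below, and none had an unadjusted limma p under 0.05. Probes of 1 gene are not independent of each other. Over all genes tested, with 1 probe each, 40.8% of differences were above 0. Of the 8 genes with 2 kept probes, 5 had the same sign in both and 3, Hoxa7, Hoxd3 and Hoxd4, had opposite signs. Hoxb8 was among the 5, but the sign of its second probe rested on tricresyl phosphate 1, at 0.22. The other tricresyl phosphate animals, at −3.31 and −3.63, lay within or below the corn oil range of −3.56 to −3.08. The 2 probes of 1 gene could stand far apart in level: their gap had a median over animals of 0.92 for Hoxd3 and of 4.85 log2 units for Hoxd10.

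Listed genes for proteins that work with Hox factors were above background where a probe was present, against 79.5% of all genes with a symbol. Of 10 listed cofactors, the Pbx, Meis and Pknox proteins that bind DNA beside Hox proteins and the Pbx partner Pbxip1, 9 had a probe and all 9 were above background. Their differences were above 0 for 4 and below 0 for 5, with a median of −0.01, and none had an unadjusted limma p under 0.05. Pknox2 was at −4.74, −4.93 and −5.14 in tricresyl phosphate animals, against −4.87, −4.43 and −4.33 in corn oil animals. Its groups overlapped, and its difference was −0.39 ± 0.18 (SE), with an unadjusted limma p of 0.0707. Among the 5 arrays of the slide that both groups share, which leaves out corn oil 1, it was −0.56, with an unadjusted limma p of 0.0125 and an adjusted p of 0.94. Leaving out 1 animal gave −0.56 to −0.29. It was −0.29 without tricresyl phosphate 3 (unadjusted limma p of 0.192) and −0.29 without corn oil 3 (unadjusted limma p of 0.198).

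Of 35 listed regulators, among them the Trithorax and Polycomb proteins that keep Hox genes on or off and the retinoic acid enzymes and receptors that induce them, 27 had a probe and all were above background. They had a median difference of 0.00, with 14 above 0 and 13 below. Against 5.49% of all genes tested, 1 of these 27 reached an unadjusted limma p under 0.05. This was Aldh1a2, which makes retinoic acid. It was at −3.29, −3.05 and −3.30 in tricresyl phosphate animals, against −2.67, −2.82 and −3.08 in corn oil animals. The groups overlapped only between tricresyl phosphate 2 and corn oil 3. The difference was −0.36 ± 0.14 (SE), with an unadjusted limma p of 0.0409 and an adjusted p of 0.811. On the shared slide it was −0.27, with an unadjusted limma p of 0.119. Cyp26a1, which breaks retinoic acid down, had a difference of 0.51 ± 0.24 (SE), with an unadjusted limma p of 0.076. On the shared slide it was 0.77, with an unadjusted limma p of 0.00264 and an adjusted p of 0.94, and without corn oil 3 it was 0.36, with an unadjusted limma p of 0.215.

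Kidney patterning genes, 18 of 20 with a probe, had 16 above background, the exceptions being Osr1 and Ret. The median difference was −0.04, with 7 above 0 and 9 below. Beside the 5.49% of all genes tested, 1 of these 16 had an unadjusted limma p under 0.05. This was Gdnf, the growth factor that calls out the ureteric bud and that Hox11 proteins help to switch on in the mouse. It was at 3.84, 3.54 and 3.28 in tricresyl phosphate animals, against 4.14, 3.98 and 4.04 in corn oil animals. The groups did not overlap, and the difference was −0.50 ± 0.16 (SE), with an unadjusted limma p of 0.0178 and an adjusted p of 0.811. On the shared slide it was −0.46, with an unadjusted limma p of 0.0557. The other Gdnf probe gave the opposite sign, 1.11. Gata3, a collecting duct transcription factor, had a difference of 0.25 ± 0.12 (SE), with an unadjusted limma p of 0.0763. Leaving out 1 animal gave 0.17 to 0.36. It was 0.36 without corn oil 3 (unadjusted limma p of 0.0164) and 0.17 without corn oil 2 (unadjusted limma p of 0.218). On the shared slide it was 0.24, with an unadjusted limma p of 0.157.

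Of 22 genes and RNAs beside or within the clusters, members left out, 10 had a probe, and all 10 were protein-coding neighbours above background. Differences were above 0 for 5 and below 0 for 5, with a median of 0.00. An unadjusted limma p under 0.05 was found for 1 of the 10, against 5.49% of all genes tested. Evx1, the homeobox gene next to Hoxa13, passed the filter mainly through the group where it was higher, with all 3 corn oil arrays above background and only tricresyl phosphate 3 beside them. It was at −5.56, −5.44 and −5.64 in tricresyl phosphate animals, against −5.25, −5.13 and −5.30 in corn oil animals. Its groups did not overlap, and the difference was −0.32 ± 0.10 (SE), with an unadjusted limma p of 0.0156 and an adjusted p of 0.811. The unadjusted limma p was 0.113 with normexp background correction, where the difference was −0.13, and 0.212 with an intensity trend, and a filter on all 6 arrays left the gene out. Atp5mc1, a subunit of the mitochondrial ATP synthase, had a difference of −0.22 ± 0.09 (SE), with an unadjusted limma p of 0.0529. Markers of the labelled tissue, renal cortex, were above background in every list used for its cell types, from proximal tubule to podocyte. Of markers from outside the cortex, Cyp11b1 and Star of the adrenal gland were above background on 0 arrays, while the third adrenal marker, Cyp21a1, was above background on 6 and at −2.03 to −1.94 with tricresyl phosphate, against −2.07 to −1.91 with corn oil. Of the ureter and pelvis urothelium markers, Upk1b and Krt5 were above background on 6 arrays, Upk3a on 5 and Upk2 on 1. The inner medulla markers Slc14a2 and Aqp4 were above background on 6 arrays, with differences of 0.05 ± 0.14 (SE) and 0.45 ± 0.14 (SE). Aqp4 had groups that did not overlap and an unadjusted limma p of 0.0204, and its 3 other kept probes gave differences of 0.05 to 0.71. The hepatocyte list averaged −2.37 to −0.39 with tricresyl phosphate, against −4.32 to 0.03 with corn oil, and the adipocyte list averaged −1.70 to −1.15 with tricresyl phosphate, against −2.95 to −2.04 with corn oil. Of its 2 measured members, Fabp4 had a difference of 1.73 ± 0.46 (SE), with groups apart and an unadjusted limma p of 0.00904, and Adipoq one of 0.20 ± 0.23 (SE), with overlapping groups. The part of these in any Hox value was not tested.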

How the data were processed

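Renal cortex RNA of 6 rats, 3 per group by the labels' treatment, was hybridised to 1-colour (Cy3) Agilent arrays. Spots were quantified by the authors in Agilent Feature Extraction (10.7 in the submitters' processing notes, 10.7.1.1 in the headers). Per the file headers, the intensity columns are linear: a processed signal per spot, corrected for background, and the median spot and background signals. The deposited flags for spots well above background and for outlier spots came from the same software. The authors' value table is the processed signal over a constant for each array, to within 0.0087% to 0.0092% (coefficient of variation over the brighter probes), so it is linear and uncentred, with medians of 0.1094 to 0.1152.

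Probes (61537 per array, 1439 control spots left out) were named by accession through the RefSeq table of GRCr8: 28206 had 1 symbol, 0 several and 33331 none. The files use another build, rn4, so coordinates are given only for RefSeq promoters. Levels are the log2 processed signal relative to each array's 75th percentile, with 77 outlier spots set missing. Probes well above background on at least 3 of 6 arrays were kept (43099 kept, 18438 removed), and a gene was represented by its kept probe of highest mean level. Entries without a symbol were counted as genes under the name given on the array. A two-sided comparison by limma 3.58.1 (lmFit, eBayes; R 4.3.3) was adjusted by Benjamini-Hochberg over 31637 genes, and the fit was tested on simulated data. Tables and figures were made in Python 3.11.15 with pandas 2.3.3 and matplotlib 3.10.9.

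Arrays had 41503 to 43823 probes well above background, the median processed signal was 102.6 to 133.2 over a background of 33.0 to 41.0, and no spot was saturated. Correlations between arrays were 0.988 to 0.990 within groups and 0.987 to 0.991 between groups. Slide 2 (scan 2) held 5 arrays, and corn oil 1 was by itself on slide 1 (scan 1). The number of arrays limits the precision.

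Hox genes named singly were those on a fixed list, whatever their values, and, in each direction, the 4 of smallest p. The fixed list held genes studied in the kidney and some, but not all, genes of the middle and 3-prime paralog groups. From each other list the 2 genes with the smallest p were named, and some genes that these rules cover are not reported here. The members and lists were chosen with earlier results of these data known. The area around the Hoxb8 spot was examined after its value was seen. Alternatives were quantile normalization, normexp (offset 50) with quantile normalization, the authors' table, other filters on dim probes, the mean of a gene's probes, its other probe, an intensity trend with robust estimation, slide and replicate blocks, and leaving out each animal. The normexp step used median spot signals.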

Additional observations from a re-analysis of the deposited data

How the results depend on the processing

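Of 348 values under alternatives for 23 results, 321 kept their direction and their side of the threshold or, for counts, stayed within 1.5 times the reported count. Beyond that, 10 counts moved and 17 differences turned sign. These alternatives are not all separate. The slide block and leaving out corn oil 1 gave the same fit, and the authors' table nearly repeats the reported scaling. The count of genes past the adjusted threshold, 0 as reported, was 2 with normexp, 2 with an intensity trend and robust estimation, and 0 to 1 without 1 animal. No Hox gene passed it under any alternative, the lowest adjusted limma p of a named Hox gene being 0.694. The count of Hox genes at an unadjusted p under 0.05, 0 as reported, was 1 with normexp (Hoxa2, p of 0.0299) and 0 to 1 without 1 animal, Hoxa2 without tricresyl phosphate 1 and Hoxb8 without tricresyl phosphate 3. The count of Hox genes above background, 17 as reported, was 16 to 21. The count at the same p over the other lists, 3 as reported, was 2 to 4 under other processing and 1 to 6 without 1 animal. It was 1 without corn oil 2, 5 without corn oil 3 and 6 without tricresyl phosphate 3. Over all 31637 genes tested, the matching counts were 1609, 2081 and 1595. The Hox median was 0.027 to 0.092 without 1 animal. It was 0.092 on the slide that holds both groups, where 0 Hox genes had an unadjusted p under 0.05 and the 3 list genes that did were Pknox2, Cyp26a1 and Evx1. Without 1 animal, differences ranged from −0.21 to 0.10 for Hoxa7, −0.04 to 0.12 for Hoxb4, −0.42 to 0.27 for Hoxd3, −0.20 to 0.10 for Hoxd4 and −0.03 to 0.17 for Hoxd10. The mean of a gene's kept probes gave 0.14 for Hoxd3, 0.07 for Hoxd4 and 0.30 for Gdnf. The other probe gave 0.06 for Hoxa7, 0.44 for Hoxd3, 0.19 for Hoxd4 and 1.11 for Gdnf. The cause was not tested. Deviations of animals with the same replicate number had correlations of 0.0864, −0.0506 and −0.0438, against −0.0776 to 0.12 for differently numbered animals. No pairing by number was seen, but correlations over so few animals cannot exclude it. With a replicate block the Hox median was 0.056, 0 genes passed the adjusted threshold, and 1927 genes, against 1737 without the block, had an unadjusted limma p under 0.05. Hoxb3 and the genes of groups 1, 12 and 13 are limited by their signal over background.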
